A study of Mus musculus with 12 samples.

Results

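Gdf9, Bmp15, Bmp6, Fgf8 and Kit are the growth factor genes of the mouse oocyte and the gene of its receptor tyrosine kinase KIT. They were chosen by name, found in the 12 count files by their Ensembl identifiers (ENSMUSG00000018238, ENSMUSG00000023279, ENSMUSG00000039004, ENSMUSG00000025219 and ENSMUSG00000005672), and are 5 of the 55573 genes counted. All 5 had counts in every library and passed the filter on low counts in each comparison.

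The growing oocyte and the granulosa cells around it depend on each other's signals. GDF9 and BMP15 are TGF-beta family ligands that the oocyte secretes and that drive granulosa cell growth and cumulus expansion, while BMP6 belongs to the BMP branch of the same family. FGF8 is a fibroblast growth factor that acts on cumulus cells together with the BMP ligands, and KIT sits in the oocyte membrane, where it receives KIT ligand made by the granulosa cells.

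Poly(A) RNA-seq was performed on fully grown germinal vesicle (GV) oocytes, which are arrested before the first meiotic division. The libraries differed in the number of amplification cycles and the amount of input RNA. The paper used fractional amounts of oocytes to illustrate normalization to ERCC spike-in RNA, which was added to each sample before library construction. Whole oocytes were amplified for 10, 14 or 18 cycles, and dilutions of oocyte lysate that stood for 1/2, 1/4 and 1/8 of an oocyte were amplified for 18 cycles, with 2 libraries in each of the 6 groups. The 6 whole-oocyte libraries came from 6 oocytes and the 6 fraction libraries from 2 oocytes, so fraction libraries share an oocyte. Every group was of the same kind: untreated GV oocytes from B6D2F1 females, 12 weeks old and healthy, held in M2 medium with milrinone, which keeps the meiotic arrest. The methods word the source as a single female, so p-values measure the spread between these oocytes and lysates and not between animals.

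Whole oocytes had 11597144 and 9189672 counts on genes with 10 cycles of amplification, 12349577 and 13806199 with 14, and 3017069 and 1706478 with 18. They were 4024670 and 3598549 in the 1/2 oocytes, 4027907 and 5049518 in the 1/4 oocytes, and 11404262 and 1702062 in the 1/8 oocytes. Counts on ERCC molecules were lowest in the whole oocytes at 18 cycles, at 1611 and 1474, and between 9167 and 231470 in the other 10 libraries. Values below are listed with replicate 1 first, in CPM, counts scaled to a common total of gene counts, unless another scale is named.

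Gdf9, the most abundant member, lies on chromosome 11 (53431023 to 53437904, plus strand, GRCm38). Its level was 5349 and 5057 CPM in whole oocytes at 10 cycles, 5515 and 5874 CPM at 14 cycles, and 1606 and 1579 CPM at 18 cycles. Both 18-cycle libraries lay below all 4 libraries of fewer cycles, without overlap. In the fractions Gdf9 was at 2225 and 2476 CPM in 1/2 oocytes, 3680 and 2957 CPM in 1/4 oocytes, and 4331 and 3535 CPM in 1/8 oocytes. Every fraction library was above both whole oocytes at 18 cycles and below all whole oocytes at 10 and 14 cycles.

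Bmp15, the X-linked partner of Gdf9 (X chromosome, 6314107 to 6320721, minus strand), was at 4271 and 3704 CPM at 10 cycles, 4210 and 4086 CPM at 14 cycles, and 814 and 852 CPM at 18 cycles. It was at 638 and 940 CPM in 1/2 oocytes, 987 and 1072 CPM in 1/4 oocytes, and 2529 and 2844 CPM in 1/8 oocytes. The 1/2 oocytes overlapped the whole oocytes at 18 cycles, and the 1/8 oocytes stood above both other fractions.

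Bmp6 (chromosome 13, 38345107 to 38500302, plus strand) was the ligand gene with the least even replicates at 18 cycles. It was at 136 and 164 CPM at 10 cycles, 143 and 132 CPM at 14 cycles, and 205 and 523 CPM at 18 cycles. The fractions had 149 and 188 CPM (1/2), 142 and 88.5 CPM (1/4), and 124 and 118 CPM (1/8). Only the whole oocytes at 18 cycles stood above all other groups, and replicate 2 there was the highest of the 12 libraries. Of its exonic bases, 224 are shared with Txndc5 on the opposite strand, and without strand information reads from the shared stretch cannot be told apart.

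Fgf8 (chromosome 19, 45736798 to 45742915, minus strand) was at 86.5 and 76.4 CPM at 10 cycles, 104 and 112 CPM at 14 cycles, and 400 and 798 CPM at 18 cycles. It was at 1227 and 635 CPM in 1/2 oocytes, 498 and 382 CPM in 1/4 oocytes, and 204 and 102 CPM in 1/8 oocytes. The whole oocytes at 18 cycles and the 1/2 oocytes overlapped, and the 1/8 oocytes lay below all other libraries of 18 cycles. The least precise value of any member was that of Fgf8 in 1/8 oocyte replicate 2, with 174 counts and a Wilson 95% interval of 88.1 to 119 CPM, which covers counting error only.

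Kit, the receptor gene (chromosome 5, 75574916 to 75656722, plus strand), was at 704 and 573 CPM at 10 cycles, 667 and 715 CPM at 14 cycles, and 235 CPM in both libraries at 18 cycles. It was at 172 and 243 CPM in 1/2 oocytes, 370 and 402 CPM in 1/4 oocytes, and 637 and 545 CPM in 1/8 oocytes. The 1/8 oocytes overlapped the whole oocytes at 10 cycles, and the 1/2 oocytes overlapped the whole oocytes at 18 cycles.

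**Figure D1:**
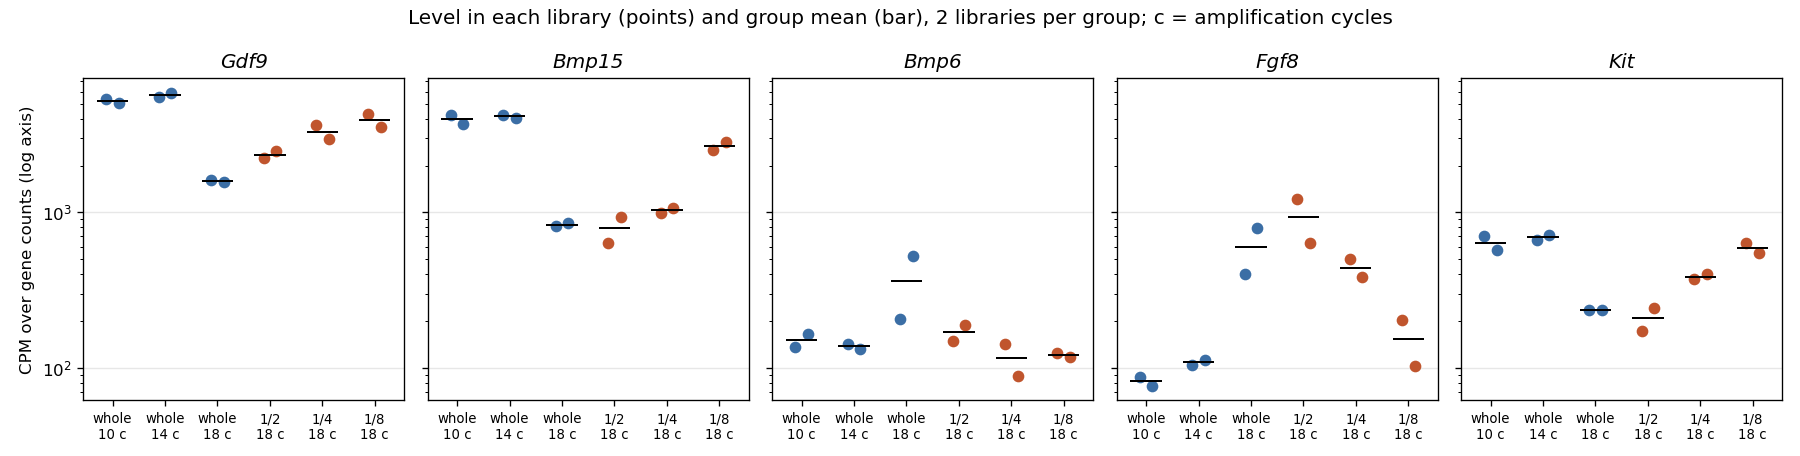
Level of each member in CPM over gene counts (log axis) in the 6 groups, with a point for each library and a bar at the mean of the 2 libraries, whole oocytes in blue and fractions in orange. In whole oocytes at 18 cycles the means of Gdf9, Bmp15 and Kit were 1592, 833 and 235 CPM against 5203, 3988 and 639 CPM at 10 cycles, and that of Fgf8 was 599 CPM against 81.4 CPM.

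The order of the members per length, in TPM, where counts are divided by exon length and then scaled to the same total in each library, moved with these levels. In whole oocytes at 10 cycles Gdf9 was at 8320 ± 357 TPM and Bmp15 at 4232 ± 439 TPM (SD, n = 2), followed by Kit at 233 ± 34.4 TPM, Fgf8 at 196 ± 17.8 TPM and Bmp6 at 125 ± 16.0 TPM. Kit and Fgf8 were neighbours that did not differ beyond their spread at 10 cycles, nor at 14 cycles, where Fgf8 was at 252 ± 12.3 TPM and Kit at 244 ± 11.8 TPM. Gdf9 ranked 6 and 4 among all genes by TPM at 10 cycles and 5 and 3 at 14 cycles. At 18 cycles Gdf9 was at 2355 ± 31.2 TPM, ahead of Fgf8 at 1332 ± 623 TPM, Bmp15 at 818 ± 25.3 TPM, Bmp6 at 280 ± 173 TPM and Kit at 79.2 ± 0.0849 TPM. Fgf8 was uneven there, at 892 and 1773 TPM, but above Bmp15, at 800 and 836 TPM, in both libraries. Gdf9 ranked 29 and 37 among all genes at 18 cycles.

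In the fractions Gdf9 led in all 6 libraries. Fgf8 was second in 1/2 oocytes, at 1937 ± 777 TPM before Bmp15 at 738 ± 237 TPM, Bmp6 at 123 ± 26.8 TPM and Kit at 66.7 ± 19.4 TPM. In 1/4 oocytes Bmp15 at 1021 ± 62.4 TPM and Fgf8 at 989 ± 182 TPM did not differ beyond their spread, before Kit at 132 ± 8.15 TPM and Bmp6 at 89.7 ± 29.2 TPM. In 1/8 oocytes the order was Gdf9 at 5906 ± 776 TPM, Bmp15 at 2681 ± 253 TPM, Fgf8 at 345 ± 159 TPM, Kit at 202 ± 20.0 TPM and Bmp6 at 94.5 ± 2.43 TPM. Fgf8 was above Kit in both of these libraries, at 458 and 233 TPM against 216 and 188 TPM. The place of Kit depends on the length used: its exons span 8911 bases in all and its longest transcript 5241. With the longest transcripts Kit was at 323 and 345 TPM at 14 cycles, above Fgf8. Their order also turned in 1/8 oocyte replicate 2, with Kit at 256 and Fgf8 at 215 TPM. In 1/8 oocyte replicate 1 Fgf8 stayed above Kit, at 423 against 294 TPM.

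Ratios inside a library need no scaling between libraries. Bmp15 counts per Gdf9 count were 0.798 and 0.733 in whole oocytes of 10 cycles, 0.763 and 0.696 in those of 14, and 0.507 and 0.540 in those of 18. They were 0.287 and 0.380 in 1/2 oocytes, 0.268 and 0.363 in 1/4 oocytes, and 0.584 and 0.804 in 1/8 oocytes. The ligand pair was thus closest to equal counts in whole oocytes of few cycles and in 1/8 oocytes, and furthest apart in 1/2 and 1/4 oocytes.

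Kit counts per Gdf9 count moved less, from 0.132 and 0.113 at 10 cycles to 0.146 and 0.149 at 18 cycles and 0.147 and 0.154 in 1/8 oocytes, with the 1/2 oocytes lowest at 0.0775 and 0.0981. Fgf8 counts per Gdf9 count were 0.0162 and 0.0151 at 10 cycles, 0.249 and 0.505 at 18 cycles, 0.551 and 0.256 in 1/2 oocytes, and 0.0471 and 0.0289 in 1/8 oocytes. Fgf8 was thus the member whose standing beside Gdf9 varied the most.

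The comparison of 14 with 10 cycles asked whether 4 more cycles changed the levels. None of the 5 members passed the adjusted p threshold of 0.01, and the background was 0% of the 17532 genes tested in the lower direction and 0% in the higher direction. At an unadjusted p under 0.05 edgeR had 513 genes, and DESeq2 called 1 gene lower and 1 higher, neither of them a member. The log2 fold changes of the members ran from −0.16 ± 0.38 (SE) for Bmp6 to 0.38 ± 0.32 for Fgf8, with an adjusted p of 1.00 for each member. Gdf9 was at 0.10 ± 0.18, Bmp15 at 0.03 ± 0.19 and Kit at 0.08 ± 0.19.

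All 5 members were called between 18 and 10 cycles, where the background was 10.8% of genes lower and 12.3% higher. Both shares were smaller without either 10-cycle library. Gdf9 was lower, at a log2 fold change of −1.44 ± 0.19 (edgeR adjusted p = 0.000309), and at 0.79 with ERCC size factors. Its partner Bmp15 was lower, at −1.99 ± 0.20 (adjusted p = 9.73e-05), and at 0.24 with ERCC size factors. The receptor gene Kit was lower, at −1.17 ± 0.20 (adjusted p = 0.00117), and at 1.07 with ERCC size factors. Fgf8 was higher, at 3.17 ± 0.34 (adjusted p = 0.000122), and Bmp6 at 1.57 ± 0.39 (adjusted p = 0.00998). For every member the groups did not overlap. The share of all genes without overlap was not counted, and an exact permutation test of 2 against 2 libraries reaches no two-sided p below 0.333. The calls of Bmp6 and Kit depended on single libraries. Bmp6 was no longer called without 10-cycle replicate 1 (0.0973), 10-cycle replicate 2 (0.0598) or 18-cycle replicate 2 (0.0309, log2 fold change 0.67), nor with TMM factors (0.0120) or the filter of 10 counts in every library (0.0103), and Kit was not called without 10-cycle replicate 1 (0.0143). Without 18-cycle replicate 1 Bmp6 was at 2.16, and without replicate 2 Fgf8 was at 2.52.

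The directions for Gdf9, Bmp15 and Kit thus rest on size factors taken from genes. With ERCC size factors none of the 3 was called (adjusted p = 0.102, 0.632 and 0.0242), while Bmp6 and Fgf8 were at 3.60 and 5.27. The median of all genes moved from −0.29 to 1.96 between these scalings. Relative to that median Gdf9 was at −1.15 and −1.17, Bmp15 at −1.70 and −1.72, Kit at −0.88 and −0.89, Bmp6 at 1.86 and 1.64, and Fgf8 at 3.46 and 3.31, in the order of gene and ERCC size factors.

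Against 14 cycles, which shares the 18-cycle libraries with the comparison above, all 5 members were again called, beside 10.7% of genes lower and 12.5% higher. Gdf9 was at −1.54 ± 0.19 (adjusted p = 0.000218), Bmp15 at −2.01 ± 0.20 (adjusted p = 9.51e-05) and Kit at −1.25 ± 0.20 (adjusted p = 0.000799). Fgf8 was at 2.80 ± 0.33 (adjusted p = 0.000194) and Bmp6 at 1.73 ± 0.39 (adjusted p = 0.00616). The secreted pair and the receptor were lower with gene size factors, whereas with ERCC size factors Gdf9, Bmp15 and Kit were at 0.71, 0.22 and 0.99, none of them called. Leaving out 1 library ended the call of Bmp6 for 14-cycle replicates 1 and 2 (adjusted p = 0.0234 and 0.0344), 10-cycle replicates 1 and 2 (0.0200 and 0.0197) and 18-cycle replicate 2 (0.0125, log2 fold change 0.83). It ended the call of Kit for 14-cycle replicate 2 (0.0138). With only the 2 groups compared Bmp6 was not called (0.0211). Bmp6 was at 2.33 without 18-cycle replicate 1, and Fgf8 at 2.15 without replicate 2.

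The base composition of the members followed these directions only in part. The share of G and C in the longest transcript was 62.8% for Fgf8 and 57.8% for Bmp6, the members that were higher at 18 cycles, and 53.0% for Gdf9, 48.5% for Kit and 42.5% for Bmp15. Over all genes called in 18 against 10 cycles the median share was 45.4% for those lower and 53.7% for those higher, beside 49.0% for all genes tested. Gdf9 was lower although its share lay above that of all genes and above the upper quartile of the lower genes, 49.25%. The part of base composition in these differences was not tested.

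The fraction comparisons set dilutions of lysate beside whole oocytes at a fixed 18 cycles. The dilutions came from other oocytes than the whole-oocyte libraries, so input and oocytes differ together and cannot be told apart. The comparisons share the whole oocytes at 18 cycles as reference. They were computed with median-ratio size factors from genes, which compare shares of the transcriptome, and with ERCC size factors, which compare amounts per spike-in.

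With median-ratio size factors no member was called in 1/2 oocytes, where the background was 0.0406% of genes lower and 0.0811% higher out of 14788 tested. At an unadjusted p under 0.05 edgeR had 1943 genes, 1 of them a member, and DESeq2 called none of the 5. Bmp6 was at −1.18 ± 0.37 (adjusted p = 0.132) and Gdf9 at 0.52 ± 0.27 (adjusted p = 0.416). Bmp15, Fgf8 and Kit had groups that overlapped, at −0.13 ± 0.27, 0.59 ± 0.38 and −0.22 ± 0.27. Without 18-cycle replicate 2 Bmp6 was at −0.26 and Fgf8 at 1.25, and without replicate 1 they were at −1.75 and 0.12. Without 1/2 oocyte replicate 1 Fgf8 was at −0.0112 and Bmp15 at 0.0977.

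In 1/4 oocytes no member was called either, beside 0.426% of genes lower and 0.0338% higher. At an unadjusted p under 0.05 edgeR had 2331 genes, 3 of them members. Bmp6 came nearest, at −1.81 ± 0.38 (adjusted p = 0.0142), and Gdf9 was at 0.93 ± 0.27 (adjusted p = 0.0864). DESeq2 called both, Bmp6 lower (adjusted p = 0.000564) and Gdf9 higher (adjusted p = 0.00537). With the replicate number as a block edgeR called 1 member, in the lower direction, beside 105 genes lower and 21 higher of 14788. Bmp6 was also called by edgeR without a filter on low counts (1.53e-06) and without 18-cycle replicate 1 (0.000393). Kit was at 0.57 ± 0.27, Bmp15 at 0.16 ± 0.27 and Fgf8 at −0.60 ± 0.38, and of these Fgf8 had groups that overlapped. Without 18-cycle replicate 2 Fgf8 was at 0.0646 and Bmp6 at −0.90, and without replicate 1 they were at −1.07 and −2.39.

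In 1/8 oocytes all 5 members were called, beside 8.69% of genes lower and 7.06% higher. Both shares were smaller with either 18-cycle whole oocyte or either 1/8 oocyte left out. Bmp15 was higher in share by 1.49 ± 0.27 (adjusted p = 0.000437), and at −3.46 with ERCC size factors. Kit was higher by 1.13 ± 0.27 (adjusted p = 0.00387), and at −3.81 with ERCC size factors, and Gdf9 by 1.10 ± 0.27 (adjusted p = 0.00401), and at −3.84. Fgf8 was lower, at −2.17 ± 0.40 (adjusted p = 0.000413), and Bmp6 at −1.82 ± 0.38 (adjusted p = 0.00122). The groups did not overlap for any member, again without a count of such genes among all genes. Bmp15 was called with each library of the fit left out in turn, and the other members were not. Without 18-cycle replicate 1 the calls of Gdf9 (adjusted p = 0.0335) and Kit (0.0379) ended, and without 18-cycle replicate 2 those of Gdf9 (0.0141), Kit (0.0150), Fgf8 (0.0121) and Bmp6 (0.0685, log2 fold change −0.91). Without 1/8 oocyte replicate 1 the calls of Gdf9 (0.0293), Kit (0.0224) and Bmp6 (0.0157) ended, and without 1/8 oocyte replicate 2 those of Fgf8 (0.0130) and Bmp6 (0.0152). Bmp6 was at −2.40 without 18-cycle replicate 1.

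The reference group decided which fraction stood apart. Against whole oocytes at 10 cycles, in a fit of all 12 libraries with median-ratio size factors, 4 members were called in 1/2 oocytes, beside 6.88% of genes lower and 9.3% higher. Fgf8 was higher there by 3.77 ± 0.39 (adjusted p = 2.38e-06), and Bmp15 was at −2.10 ± 0.23 (3.67e-06), Kit at −1.39 ± 0.23 (0.000117) and Gdf9 at −0.91 ± 0.22 (0.00384). In 1/4 oocytes the calls were Bmp15, at −1.83 ± 0.23 (1.72e-05), and Fgf8, at 2.56 ± 0.37 (7.11e-05), beside 4.17% of genes lower and 5.82% higher.

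In 1/8 oocytes against whole oocytes at 10 cycles no member and no other gene was called, 0% lower and 0% higher of 18041, although 2278 genes had an unadjusted edgeR p under 0.05. The members ran from −0.51 ± 0.22 for Bmp15 (adjusted p = 0.356) to 0.98 ± 0.36 for Fgf8 (adjusted p = 0.283), with Kit at −0.05 ± 0.22. In that comparison the number of cycles, the amount of input and the oocytes differ together and cannot be told apart.

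Between fractions, a comparison added after the data were seen, 1/4 against 1/2 oocytes gave no calls, 0% lower and 0% higher, while 1842 genes had an unadjusted edgeR p under 0.05. In 1/8 against 1/2 oocytes 3.86% of genes were lower and 2.08% higher. Bmp15 was higher there by 1.61 ± 0.27 (adjusted p = 0.000753), Kit by 1.35 ± 0.27 (0.00244), and Fgf8 was lower, at −2.76 ± 0.41 (0.000330). Gdf9 at 0.58 ± 0.26 (0.148) and Bmp6 at −0.64 ± 0.37 (0.260) were not called.

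Per spike-in, Gdf9 counts per 1000 ERCC counts were 3008 and 1828 in whole oocytes at 18 cycles, 977 and 851 in 1/2 oocytes, 788 and 514 in 1/4 oocytes, and 213 and 164 in 1/8 oocytes. Each of the 3 fractions lay below the whole oocytes, and each smaller fraction below the larger ones, without overlap. Bmp15 had 1525 and 986 in whole oocytes, 280 and 323 in 1/2, 211 and 186 in 1/4, and 125 and 132 in 1/8 oocytes. Kit had 440 and 272, then 75.7 and 83.5, 79.2 and 69.9, and 31.4 and 25.3 in the same order, so that 1/2 and 1/4 oocytes overlapped for the receptor gene.

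Fgf8 fell over a wider span, from 750 and 923 counts per 1000 ERCC counts in whole oocytes at 18 cycles to 539 and 218 in 1/2 oocytes, 107 and 66.3 in 1/4 oocytes, and 10.1 and 4.76 in 1/8 oocytes. Bmp6 went from 384 and 605 through 65.3 and 64.7 and then 30.4 and 15.4 to 6.10 and 5.47. For both genes the 4 groups followed the input without overlap.

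With ERCC size factors 4 members were called lower in 1/2 oocytes, beside 52% of genes lower and 0% higher. Bmp6 was at −3.00 ± 0.49 (adjusted p = 9.80e-06), Kit at −2.23 ± 0.46 (0.000117), Bmp15 at −2.13 ± 0.46 (0.000175) and Gdf9 at −1.46 ± 0.46 (0.00561). Fgf8 was at −1.18 ± 0.48 (adjusted p = 0.0287). With a median of −1.997 over all genes, more genes were called than not in the fit of all 8 libraries. The count of members is thus no result about them. The median was −1.394 without 18-cycle replicate 1 and −1.839 without 1/2 oocyte replicate 2. Fewer genes were called than not in those fits. Gdf9 was no longer called without 18-cycle replicate 1 (0.107), without 1/2 oocyte replicate 1 (0.0213) or 2 (0.0796), or with 10 counts in every library (0.0118), and Fgf8 was called without 1/2 oocyte replicate 1 (0.00627, log2 fold change −2.11).

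In 1/4 oocytes all 5 members were called lower, beside 69.7% of genes lower and 0% higher, from Gdf9 at −1.78 ± 0.47 (adjusted p = 0.000675) to Bmp6 at −4.33 ± 0.52 (5.94e-09). Bmp6 was at −4.93 without 1/4 oocyte replicate 1. The call of Gdf9 ended without 18-cycle replicate 1 (0.0166) or 1/4 oocyte replicate 2 (0.0258). In 1/8 oocytes all 5 were called, beside 87.5% lower and 0% higher. No gene had an unadjusted edgeR p under 0.05 in the higher direction in the 3 ERCC comparisons, and DESeq2 called none higher.

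In 1/8 oocytes Bmp15 was at −3.46 ± 0.49, Kit at −3.81 ± 0.50 and Gdf9 at −3.84 ± 0.51, above the median of all genes at −4.92. Bmp6 at −6.59 ± 0.58 and Fgf8 at −6.98 ± 0.62 were below it, and Fgf8 was at −7.66 without 1/8 oocyte replicate 1. Relative to the median the distances were 1.46, 1.11, 1.08, −1.67 and −2.06, close to the shares given by median-ratio size factors. Only 1611 and 1474 ERCC counts stand behind the reference of these 3 comparisons.

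**Figure D2:**
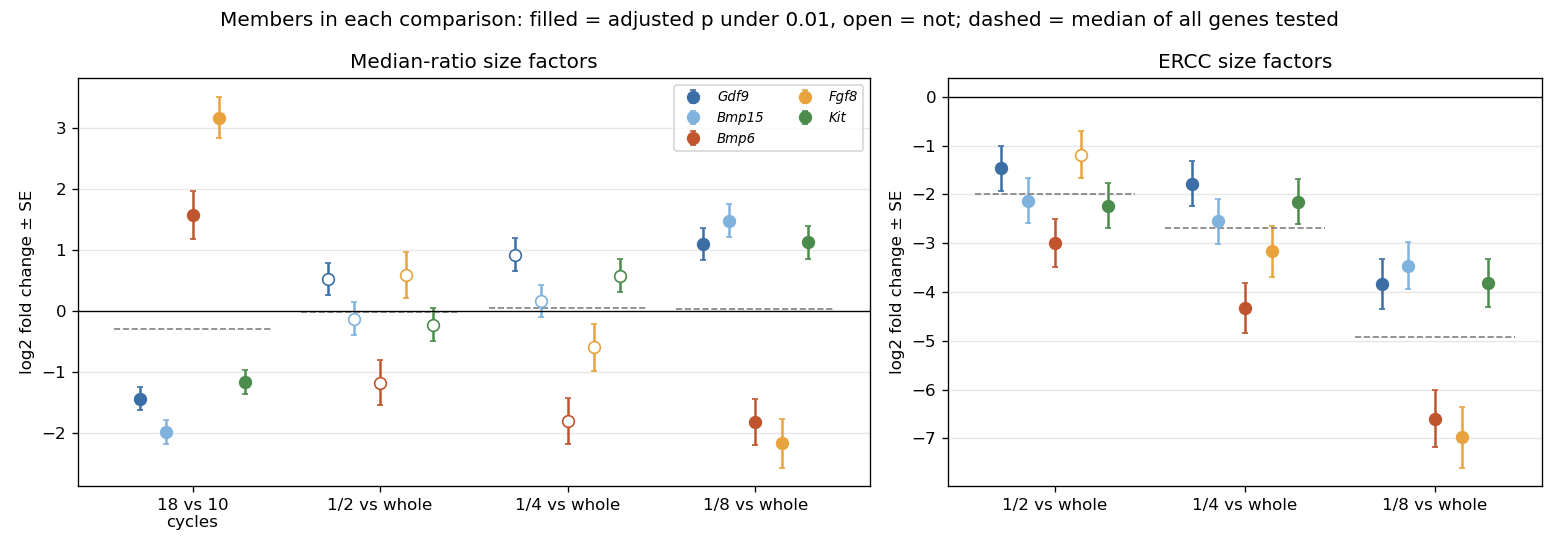
Log2 fold change of each member with its SE (2 libraries a group) with median-ratio size factors on the left and ERCC size factors on the right, filled where the adjusted p was under 0.01, with a dashed line at the median of all genes tested. In 18 against 10 cycles Gdf9, Bmp15 and Kit were at −1.44, −1.99 and −1.17 (0.79, 0.24 and 1.07 with ERCC size factors, not drawn), and in 1/8 oocytes they were at 1.10, 1.49 and 1.13 on the left and at −3.84, −3.46 and −3.81 on the right.

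Set against the whole oocytes at 10 cycles, the mean Gdf9 counts per ERCC count were 51.5% in 1/2, 36.7% in 1/4 and 10.6% in 1/8 oocytes, which held 50%, 25% and 12.5% of a lysate. Kit was at 36.7%, 34.3% and 13.1%, Bmp15 at 22.2%, 14.6% and 9.46%, and Bmp6 at 126%, 44.5% and 11.2%. Fgf8 was at 1365%, 312% and 26.7%, above its input share in every fraction. All gene counts together were at 115%, 56.8% and 14.0%, and at 443% in whole oocytes at 18 cycles. These shares are a description, since cycles, input and oocytes differ together. Set against the whole oocytes at 18 cycles, Fgf8 was at 45.2%, 10.3% and 0.885%, below its input share in every fraction. Gdf9 was then at 37.8%, 26.9% and 7.81%, Kit at 22.4%, 20.9% and 7.97%, and Bmp15 at 24.0%, 15.8% and 10.2%. Bmp6 was at 13.1%, 4.63% and 1.17%, and all gene counts together were at 25.8%, 12.8% and 3.16%.

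The coding ends of the 3 TGF-beta family ligand genes are shown because the C-terminal end holds the last cysteines of the cystine knot, the fold that this family shares, and so links members whose levels moved in opposite directions. The last 60 coding bases before the stop codon were read from the GENCODE transcripts, 5′ to 3′, with the cysteine codons TGT and TGC in capitals. They lie in 1 exon each, at chr11:53437482-53437541 (plus strand), chrX:6315633-6315692 (minus strand) and chr13:38499006-38499065 (plus strand) of GRCm38.
Gdf9: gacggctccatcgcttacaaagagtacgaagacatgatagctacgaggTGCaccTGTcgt
Bmp15: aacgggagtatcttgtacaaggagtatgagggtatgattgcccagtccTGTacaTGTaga
Bmp6: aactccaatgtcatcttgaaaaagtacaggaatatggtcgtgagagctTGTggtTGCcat
Each of the 3 windows holds 2 cysteine codons, and none was found in the same window of Fgf8 or Kit.

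Promoter windows of 300 bases around RefSeq start sites were matched by symbol in the RefSeq table (GRCm38.p6) for 3 of the 5 members, Bmp15, Bmp6 and Kit, with 2 start sites for Kit. Those of Bmp15 and Kit, whose levels moved in the same direction at 18 cycles and in 1/8 oocytes, are printed, 5′ to 3′ on the gene's strand. Capitals mark any match, on either strand, to the E-box CANNTG, the NOBOX element TAATTG or TAATTA, the TATA box TATAAA and the GC box GGGCGG. Bmp15 is at chrX:6320675-6320974 (minus strand) and Kit at chr5:75574737-75575036 (plus strand). Against the GENCODE gene starts given above, the Bmp15 and Kit windows reach into the gene at their 3′ end, which holds the Kit E-box, and the whole Bmp6 window lies inside the gene.
Bmp15: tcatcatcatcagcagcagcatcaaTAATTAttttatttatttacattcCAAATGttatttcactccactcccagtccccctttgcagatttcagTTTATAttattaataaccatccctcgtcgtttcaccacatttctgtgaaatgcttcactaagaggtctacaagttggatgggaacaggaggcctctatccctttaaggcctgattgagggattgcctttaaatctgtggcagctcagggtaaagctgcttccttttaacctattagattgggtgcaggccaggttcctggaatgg
Kit: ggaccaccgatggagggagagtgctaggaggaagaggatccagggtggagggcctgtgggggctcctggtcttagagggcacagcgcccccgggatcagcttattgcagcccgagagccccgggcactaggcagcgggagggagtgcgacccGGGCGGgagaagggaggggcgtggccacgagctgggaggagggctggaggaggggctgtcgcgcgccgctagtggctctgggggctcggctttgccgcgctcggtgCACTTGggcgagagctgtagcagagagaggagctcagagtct
The Bmp15 window held 1 E-box, 1 NOBOX element and 1 TATA box, and 41.7% of its bases were G or C. The Kit window held 1 E-box and 1 GC box, with 69.0% G and C, and that of Bmp6 held 2 E-boxes and 1 GC box, with 69.3%. Over all 32851 windows of this length 72.3% held an E-box, 12.4% a NOBOX element, 13.6% a TATA box and 35.7% a GC box, so that a match is a description and not a binding site.

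The other genes of the TGF-beta and BMP pathway, 48 ligands, receptors, SMAD proteins, antagonists and convertases outside the members, were compared at 18 cycles. Of the 35 tested, 6 were lower and 0 higher against 10 cycles, beside 10.8% and 12.3% of all genes, and 8 lower and 0 higher against 14 cycles, beside 10.7% and 12.5%, while with ERCC size factors 0 were lower and 17 higher in each, beside 8348 and 8398 of 17532 genes higher. These had list medians of −0.36 and −0.13 beside −0.29 for all genes in both comparisons with gene size factors. Tgfb2, a further TGF-beta ligand of the oocyte, fell by 2.12 ± 0.21 against 10 cycles (adjusted p = 9.00e-05), and was at 0.08 with ERCC size factors. Its levels were 324 and 319 TPM at 10 cycles and 54.2 and 59.2 TPM at 18 cycles.

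Grem1, a secreted BMP antagonist, was called lower against 10 cycles (adjusted p = 0.000463) and 14 cycles (0.00786), and in neither with ERCC size factors (0.0202 and 0.485). It had 168 and 149 counts at 10 cycles and 1 count in each library at 18 cycles, too few for a fold, and the call against 14 cycles ended with any of the 6 libraries left out (0.0143 to 0.0757), with DESeq2 (0.0126) and with only the 2 groups compared (0.0298). The proprotein convertase gene Pcsk5 fell by 2.97 ± 0.51 against 14 cycles (adjusted p = 0.00135), and was at −0.67 with ERCC size factors (0.431). It was not called without 14-cycle replicate 1 (0.0115) and was at −3.78 without 18-cycle replicate 1. In 1/8 against whole oocytes 2 of 32 tested were higher and 0 lower, beside 7.06% and 8.69% of all genes, with a list median of −0.02 beside 0.03, namely Tgfb3 at 1.499 ± 0.41 (adjusted p = 0.00997) and Tgfb2 at 1.45 ± 0.27 (0.000525). The call of Tgfb2 ended without 18-cycle replicate 1 (0.0118) and that of Tgfb3 with 7 of the 8 libraries left out in turn (0.0133 to 0.138). In 1/2 and 1/4 oocytes 0 of 32 were called, beside 0.0406% and 0.426% of all genes lower and 0.0811% and 0.0338% higher.

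Gdf9 was the most abundant gene of this pathway, at 5611 TPM over the 12 libraries. Bmp2, Gdf3 and Nodal had 0 counts in all 12 libraries, which allows a level of up to 1.76 CPM in the library with the fewest counts.

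Of the FGF8 pathway, 19 genes outside Fgf8 were listed and 15 tested. Spry4, a feedback inhibitor of receptor tyrosine kinase signalling, rose by 0.77 ± 0.18 against 10 cycles (adjusted p = 0.00845) and by 0.90 ± 0.18 against 14 cycles (0.00361). Spred1, a related inhibitor, fell by 1.42 ± 0.34 against 10 cycles (0.00780), and was at 0.86 with ERCC size factors. Spred1 was not called with any of the 6 libraries left out (0.0144 to 0.0481), nor Spry4 against 10 or 14 cycles without any 10-cycle or 14-cycle library (0.0101 to 0.0704). The call of Spry4 against 10 cycles also ended with TMM factors (0.0136), 10 counts in every library (0.0245), the replicate block (0.0114) and only the 2 groups compared (0.0412), and against 14 cycles with 10 counts in every library (0.0104) and only the 2 groups (0.0117). Spred1 was not called with only the 2 groups (0.0155). These were the calls of the list, 1 lower and 1 higher against 10 cycles, beside 10.8% and 12.3% of all genes, and 0 and 1 against 14 cycles, beside 10.7% and 12.5%, while with ERCC size factors 0 were lower and 10 of 15 higher in both, beside 8348 and 8398 of 17532 genes higher. With gene size factors the list had medians of 0.16 and −0.00 beside −0.29 for all genes. In 1/2, 1/4 and 1/8 oocytes 0 of 14 were called with median-ratio size factors. Of all genes 0.0406%, 0.426% and 8.69% were lower there and 0.0811%, 0.0338% and 7.06% higher. Fgf8 had the highest mean over the 12 libraries, at 842 TPM, although Spry4 was above it in all 4 libraries of 10 and 14 cycles and in 1/8 oocyte replicate 2.

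Of the 21 genes around KIT outside Kit, 20 were tested at 18 against 10 cycles, 2 were lower and 5 higher, beside 10.8% and 12.3% of all genes (0 and 12 with ERCC size factors, beside 0 and 8348 of 17532), with a median of 0.10 beside −0.29. Socs1, a suppressor of cytokine signalling that binds KIT, rose by 4.45 ± 0.25 (adjusted p = 4.92e-05), from 14.3 and 10.5 TPM to 198 and 218 TPM. Sh2b3, an adaptor that restrains KIT signalling, rose by 2.66 ± 0.23 (6.36e-05). The genes that fell were Kitl, which encodes the ligand of KIT, at −1.99 ± 0.47 (0.00760), and Pik3ca, a catalytic subunit of PI3 kinase, at −1.26 ± 0.29 (0.00720), and with ERCC size factors these were at 0.27 and 0.91. Kitl had 127 and 115 counts at 10 cycles and 9 and 3 counts at 18 cycles, and was not called with any of the 6 libraries left out (0.0167 to 0.0443). Pik3ca kept its call only without 18-cycle replicate 2 (0.0104 to 0.0672 without the others), and both Kitl (0.0228) and Pik3ca (0.0108) were not called with only the 2 groups compared.

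Against 14 cycles 1 gene of the KIT list was lower, Kitl at −2.15 ± 0.47 (0.00495), and 5 were higher, led by Socs1 at 3.87 ± 0.24 (5.56e-05) and Sh2b3 at 2.67 ± 0.23 (5.95e-05), with a median of 0.10, beside 10.7% of all genes lower and 12.5% higher. Scaled to ERCC, 0 of the list were lower and 11 higher, beside 2 and 8398 of 17532 genes. The call of Kitl ended with any of the 6 libraries left out (0.0125 to 0.0471) and with only the 2 groups compared (0.0146), and with ERCC size factors Kitl was at 0.15. In 1/8 against whole oocytes 4 of 19 were lower and 0 higher, beside 8.69% and 7.06% of all genes, with a median of −0.40 beside 0.03. Socs1 was at −3.87 ± 0.39 (4.12e-06) and Sh2b3 at −2.58 ± 0.35 (2.89e-05), and Socs1 at −4.69 without 1/8 oocyte replicate 1. In 1/2 and 1/4 oocytes 0 of 19 were called, beside 0.0406% and 0.426% of all genes lower and 0.0811% and 0.0338% higher. Pik3cd, another catalytic subunit of PI3 kinase, had the highest mean of the list over the 12 libraries, at 314 TPM, although Fyn was above it in both whole oocytes at 18 cycles, 1/2 oocyte replicate 2 and 1/4 oocyte replicate 1.

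Of 8 genes for transcription factors that act on oocyte growth factor genes, all were tested, and 2 were lower and 1 higher at 18 cycles against both 10 and 14 cycles, beside 10.8% and 12.3% and then 10.7% and 12.5% of all genes. The counts were 0 lower and 4 higher in both with ERCC size factors, beside 8348 and 8398 of 17532 genes higher. Nobox, a homeobox factor of the oocyte, fell by 1.32 ± 0.19 (adjusted p = 0.000498) and 1.65 ± 0.19 (0.000166), and was at 0.94 and 0.62 with ERCC size factors. Tbpl2, a germ cell TATA-binding protein, fell by 2.37 ± 0.59 (0.00966) and 3.31 ± 0.57 (0.00133), and with ERCC size factors was at −0.12 and −1.09 (0.895 and 0.188), not called. Lhx8, a LIM homeobox factor, rose by 1.33 ± 0.22 (0.00113) and 1.07 ± 0.22 (0.00364). Against 10 cycles the call of Tbpl2 ended without any library but 18-cycle replicate 2 (0.0151 to 0.105) and with only the 2 groups (0.0261), with −1.53 without 18-cycle replicate 1 and −3.22 without replicate 2, and that of Lhx8 without 10-cycle replicate 2 (0.0212). Against 14 cycles the call of Tbpl2 ended without 18-cycle replicate 1 (0.0174, log2 fold change −2.46), it was at −4.15 without replicate 2, and that of Lhx8 ended without 14-cycle replicate 1 (0.0414), replicate 2 (0.0382) or 18-cycle replicate 1 (0.0143). The list medians were 0.44 and 0.42 beside −0.29.

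In 1/8 against whole oocytes Nobox was the 1 gene of the 8 called, higher by 1.11 ± 0.28 (0.00489), beside 7.06% of all genes higher and 8.69% lower. The list median was −0.56 beside 0.03. In 1/2 and 1/4 oocytes 0 of 8 were called, beside 0.0406% and 0.426% of all genes lower and 0.0811% and 0.0338% higher. Nobox had the highest mean of them over the 12 libraries, at 502 TPM, although it led only in the libraries of 10 and 14 cycles and of 1/8 oocytes. Its call ended without either 18-cycle whole oocyte (0.0319 and 0.0294), 1/8 oocyte replicate 1 (0.0405) or either 1/4 oocyte (0.0109 and 0.0114).

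In the fractions against whole oocytes at 18 cycles, with ERCC size factors, no gene of the 4 lists was higher. In 1/2 oocytes 21 of 32 genes of the TGF-beta and BMP list, 8 of 14 of the FGF8 list, 12 of 19 of the KIT list and 5 of 8 of the transcription factors were lower, beside 52% of all genes. In 1/4 oocytes the counts were 27, 9, 14 and 7, beside 69.7%, and in 1/8 oocytes 31, 13, 19 and 7, beside 87.5%.

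The libraries carried oocyte RNA with little RNA of other cells. All 12 oocyte markers had counts in all 12 libraries, with the highest mean, 7655 TPM, for H1foo, the oocyte linker histone, which led in every group but the whole oocytes at 18 cycles, where Zar1 was above it. Their summed level was 33570 and 30203 TPM at 10 cycles, 33602 and 35467 TPM at 14 cycles, 13931 and 12867 TPM at 18 cycles, 21771 and 17268 TPM in 1/2, 24347 and 27617 TPM in 1/4 and 34078 and 27173 TPM in 1/8 oocytes. It was lowest in the whole oocytes at 18 cycles, as was Gdf9, while Bmp15 and Kit had their lowest mean TPM in 1/2 oocytes. At 18 against 10 cycles 7 of the 12 were lower and 1 higher, beside 10.8% and 12.3% of all genes, with a median of −1.16 beside −0.29. At 18 against 14 cycles 9 were lower and 1 higher, beside 10.7% and 12.5% (median −1.46), and in 1/8 oocytes 1 lower and 6 higher, beside 8.69% and 7.06% (0.97 beside 0.03). With ERCC size factors 0 of the 12 were lower at 18 cycles, with 5 higher against 10 cycles and 3 against 14 cycles, beside 8348 and 8398 of 17532 genes higher.

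The 16 granulosa and cumulus markers summed to 226 and 55.3 TPM at 10 cycles, 77.7 and 171 TPM at 14 cycles, 80.9 and 19.8 TPM at 18 cycles, 23.0 and 19.5 TPM in 1/2, 40.9 and 39.3 TPM in 1/4 and 51.2 and 52.6 TPM in 1/8 oocytes. The highest libraries were 10-cycle replicate 1 and 14-cycle replicate 2. Inha, the inhibin alpha gene of granulosa cells, had 396 and 441 counts there and 52 in 18-cycle replicate 1, against 1 to 45 in the other libraries. Cyp11a1, Gja1 and Star had 772, 377 and 285 counts in 10-cycle replicate 1 and 269, 251 and 99 in 14-cycle replicate 2. Fshr was at 0 in 9 libraries and Foxl2 in 7, while Cyp19a1, Nr5a2, Kitl and Inha had counts in all 12. The highest mean was that of Cyp19a1, at 17.4 TPM, although Inha was above it in 10-cycle replicate 1, 14-cycle replicate 2 and 18-cycle replicate 1. Outside these, Nr5a2 was above Cyp19a1 in 18-cycle replicate 2 (7.45 against 5.06 TPM) and 1/2 oocyte replicate 1 (8.87 against 5.41 TPM). The list shares 5 genes with the TGF-beta and BMP list and Kitl with the KIT list.

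At 18 against 10 cycles 2 of the 14 granulosa markers tested were lower, beside 10.8% of all genes (median −0.92). At 18 against 14 cycles 3 of 14 were lower, beside 10.7% (−0.90), and in 1/8 oocytes 1 of 9 was higher, beside 7.06% (−0.94). With ERCC size factors none was lower at 18 cycles. Against 10 cycles 0 were then higher and against 14 cycles 1, Foxl2, beside 8348 and 8398 of 17532 genes higher. The 12 markers of theca, stroma and blood summed to 22.6 to 32.8 TPM at 10 and 14 cycles and to 3.68 to 13.4 TPM in the libraries of 18 cycles, with Pecam1 the most abundant at 12.8 TPM and Hba-a1 at 0 in all 12. Of the 5 tested, Col1a2, Col3a1, Cyp17a1 and Dcn had 0 counts in both whole oocytes at 18 cycles. Pecam1 was the 1 called lower against 10 cycles, at −1.99 ± 0.32 (adjusted p = 0.000882), and with ERCC size factors it was at 0.23, not called. The part of these cells in the member differences was not tested.

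Genes of like pattern were sought among the 8329 with at least 10 counts in every library, by Pearson r of log2(CPM + 1) over the 12 libraries. These share depth and cycles, so the values describe the libraries. Gdf9 was nearest to Rab27a (r = 0.979), Dnmt1 (0.977) and Dhrs1 (0.976). Bmp15 was nearest to AC126035.1 (0.996), Fbxw18 (0.995) and Fbxw26 (0.993), the latter 2 being F-box genes. Kit was nearest to Strn (0.980), Crbn (0.980) and Aass (0.980).

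Genes close to Fgf8 included 4931440P22Rik (0.986) and the histone variant gene H2afx (0.983). Bmp6 had the fewest neighbours, with 5 genes above 0.9 against 393 for Fgf8, 503 for Gdf9, 633 for Kit and 879 for Bmp15, and its nearest were Lrrc47 (0.938), Ssbp3 (0.914) and Foxo1 (0.906). Among the members, r was 0.946 for Bmp15 and Kit, 0.914 for Gdf9 and Kit, 0.891 for Gdf9 and Bmp15, and −0.961 for Bmp15 and Fgf8.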

How the data were processed

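The authors trimmed, mapped to GRCm38 with the ERCC sequences and counted the reads of each library. The deposited values are counts, neither normalized nor freed of duplicates. The submitters' processing notes name cutadapt 2.5, STAR 2.7.2a and HTSeq 0.9.1. The kit for the libraries does not mark strand. Reads on no feature were 6.90% to 10.8% and ambiguous reads 2.64% to 4.53%, and both stayed out of the totals.

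Symbols, positions and exon lengths came from GENCODE M21, which lists 55480 of the 55573 genes. CPM used the total over genes, and TPM the union of exons. Fold changes were tested with edgeR 4.0.16 (R 4.3.3), quasi-likelihood, with Benjamini-Hochberg adjustment over all genes tested and a threshold of 0.01, for genes with at least 5 counts in 2 libraries. The cycle fit held the 6 whole oocytes and the fraction fit the 8 libraries at 18 cycles. Every p printed is from edgeR unless DESeq2 is named. Intervals are Wilson 95%, and the limit for a count of 0 is 3 counts. Both hold for counting error alone, because no molecular barcodes were used. Replicates of each group differed by more than counting noise (chi-square per degree of freedom 10.0 to 16.7).

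Named genes are the members, the 2 largest rises and falls among called genes of each pathway list in a comparison, the most abundant gene of each list, and up to 3 of the genes most like each member. In the fraction comparisons with ERCC size factors, where nothing was higher, list genes are given as counts, a choice made after the values were seen. Bmp2, Gdf3, Nodal, Inha, Cyp11a1, Gja1, Star, Fshr, Foxl2, Nr5a2, Hba-a1, Col1a2, Col3a1, Cyp17a1 and Dcn were also named after their values were seen. The members and lists were chosen with earlier results of these data known. Alternatives were DESeq2 1.42.0, other filters, TMM, ERCC or total ERCC scaling, other reference groups, the replicate number as a block, only the 2 groups compared, and leaving out each library. A compared group that lost a library kept 1, and the spread then came from the other groups of the fit. On simulated counts with 200 changed genes edgeR recovered 194 with 2 false calls in the cycle fit, and 197 with 2 false calls in the fraction fit. The changes were log2 fold changes of 2 in either direction, in genes above the median level. The spread was the same for every gene and the libraries were independent. The recovery thus does not hold for smaller changes, weaker genes or libraries that share an oocyte.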

Additional observations from a re-analysis of the deposited data

How the results depend on the processing

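The 2 libraries of a group limit every p, and the whole oocytes at 18 cycles, the reference of the fractions, had the fewest ERCC counts. In 593 of the checks on member log2 fold changes a call was kept or remained absent, whatever the size of the change. These include signs that turned without a call in either fit, so 593 is not a count of stable directions. A further 60 checks were weaker, with the call lost, and 13 stronger, with a call gained. In 29 the direction was reversed, with a call in at least 1 of the fits. The cause was not tested. With ERCC size factors 2 members instead of 5 were called at 18 against 10 cycles and 2 instead of 5 against 14 cycles, beside 8348 and 8398 of 17532 genes higher and 0 and 2 lower, and Gdf9, Bmp15 and Kit reversed to 0.79, 0.24 and 1.07 and to 0.71, 0.22 and 0.99, as did Tgfb2 (0.0825), Spred1 (0.86), Kitl (0.27 and 0.15), Pik3ca (0.91) and Nobox (0.94 and 0.62). With 1 library left out the members called changed in both 18-cycle comparisons and in 1/4 and 1/8 oocytes with median ratios. The share of all genes called changed in these fits too. In 1/4 oocytes DESeq2 called 2 members, the fit without a filter 1 and the replicate block 1, against 0. Over all genes these fits gave 171 lower and 70 higher, 159 and 46 of 24294, and 105 and 21, against 63 and 5. DESeq2 called 49 genes lower and 103 higher in 1/2 oocytes, against 6 and 12. With the block Fgf8 was called in 1/2 oocytes with ERCC size factors (−1.41, adjusted p = 0.000773), 5 members against 4. Over all genes 8366 of 14788 were then lower, against 7697. With whole oocytes of 10 and 14 cycles as reference and median ratios, 4 and 4 members were called in 1/2, 2 and 2 in 1/4, and 0 and 0 in 1/8 oocytes, 0 with all 6 whole oocytes and 3 with 1/2 oocytes. Over all genes 14 cycles gave 1265 lower and 1704 higher, 648 and 987, and 0 and 0. Reversed there, with a call in 1 of the fits, were Gdf9 in 1/2 oocytes (−0.91 and −1.01), Bmp15 (−1.83 and −1.86) and Fgf8 (2.56 and 2.19) in 1/4 oocytes, and in 1/8 oocytes Gdf9 (−0.35 and −0.44, all 6 −0.0517), Bmp15 (−0.51 and −0.54, all 6 −0.11), Fgf8 (0.98 and 0.61), Kit (−0.0525 and −0.13), Tgfb2 (−0.68 and −0.77, all 6 −0.30), Tgfb3 (−0.16 at 14 cycles), Socs1 (0.58 at 10 cycles), Sh2b3 (0.0819 and 0.0895) and Nobox (−0.22 and −0.55, all 6 −0.0521). Signs that turned without a call in either fit were those of Bmp6 in 1/2 oocytes (0.40 and 0.56), Gdf9 in 1/4 oocytes (−0.52 and −0.62) and Kit in 1/4 oocytes (−0.61 and −0.69), with all 6 whole oocytes Gdf9 in 1/2 oocytes (−0.61) and Gdf9, Bmp15, Fgf8 and Kit in 1/4 oocytes (−0.23, −1.43, 0.64 and −0.35), and with ERCC size factors Fgf8 in 1/2 oocytes (0.23). With ERCC size factors the reference of 10 cycles gave 2 members in 1/2 and 2 in 1/4 oocytes, that of 14 cycles 3 in 1/2 and 2 in 1/4 oocytes, and all 6 whole oocytes 0, 0 and 3 in 1/2, 1/4 and 1/8 oocytes, against 4, 5 and 5, while 1/2 oocytes gave 0 in 1/4 oocytes. Over all genes the reference of 10 cycles gave 384 lower and 1181 higher in 1/2 and 1399 and 157 in 1/4 oocytes, that of 14 cycles 466 and 1161, and 1269 and 106, and all 6 whole oocytes 0, 0 and 8512 lower of 18041, with 0 higher, and 1/2 oocytes 5 lower and 1 higher of 14788. Reversed were Bmp6 (0.54 and 0.68) and Fgf8 (4.03 and 3.61) in 1/2 oocytes, Fgf8 in 1/4 oocytes (1.94 and 1.52), and Kit in 1/4 against 1/2 oocytes (0.0779). Of the list counts 759 were the same, 163 weaker and 51 stronger, of the list genes 236, 85 weaker and 17 reversed, and of the levels and correlations 26 and 25 were the same and 34 and 5 moved. Paired by replicate number, libraries correlated by −0.14 to 0.14 (cycles) and −0.09 to 0.09 (fractions) after group means were removed.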
